A study of Homo sapiens with 18 samples.

Results

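The genes described are 32 classic androgen targets, each known to be induced by androgen in prostate cells, and they were followed one by one in 2 prostate cancer cell lines. They were taken by symbol, and the list was chosen with earlier results of these data known. Of the 32 listed genes, 30 had a transcript cluster, the unit that the array reports, among the 18417 genes represented by a cluster with a single symbol or among clusters that list the symbol with others. ADAM7 and KCNN2 had no cluster under this rule and were not analysed here. For a gene with several clusters, the one with the highest mean signal was used. Expression was read on 18 Affymetrix gene-level arrays (HuGene-1_0-st) with 6 arrays of VCaP and 12 of LNCaP, which fell into 12 groups. VCaP came from a vertebral metastasis and LNCaP from a lymph node metastasis, and both respond to androgen. Each cell pool had been transfected with siCTBP1-AS, siRNA against an RNA antisense to the corepressor gene CTBP1, with siPSF, siRNA against the RNA-binding protein PSF encoded by SFPQ, or with siControl. After 3 days in charcoal-stripped serum, at 5% for VCaP and 2.5% for LNCaP, and 48 h after transfection, the cells received R1881, a synthetic androgen, or vehicle (ethanol), so that every group shares serum stripping and transfection while the serum content differs with the line. The VCaP set held siCTBP1-AS #2, siPSF and siControl at 1 nM R1881. Set 1 of LNCaP held siCTBP1-AS and siControl at 10 nM R1881, set 2 held siCTBP1-AS #2 and siControl at 1 nM, and set 3 held siPSF and siControl at 10 nM. Each siRNA and treatment had 1 array in each set, which gave 9 pairs of R1881 and vehicle arrays, 3 of VCaP and 6 of LNCaP. The duration of hormone exposure and the meaning of "#2" are not given in the sources used here. Whether the arrays stand for separate cultures is not stated, and p-values therefore reflect the spread among these arrays, which may be technical.

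Androgen enters the cell and acts through response elements in DNA, most of them in enhancers away from the gene start, where coactivators that raise transcription are recruited. In luminal prostate cells its targets serve secretion, vesicle traffic, lipid and prostaglandin metabolism, and signalling by kinases. Androgen also lowers other genes, so its action is not only activating.

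Markers of luminal prostate epithelium were mostly bright in both lines. Of the 6 on the list, KRT8, KRT18 and FOXA1 had median signals at or above the 97.9th percentile of all genes in every set, and HOXB13 and SPDEF lay between the 89.3rd and 97.3rd. ACP3, which encodes prostatic acid phosphatase, was at the 99.9th in VCaP and at the 52.5th, 98.8th and 77.4th in LNCaP sets 1, 2 and 3, and it fell with R1881 over the 6 LNCaP pairs (-1.22, adjusted p = 0.00127, limma). ERG, which VCaP is known to overexpress from a gene fusion, had log2 signals of 9.01 to 12.11 in VCaP, against 3.91 to 5.03 in LNCaP, as values of sets whose median signals differ. Across the sets, 5 leukocyte genes lay between the 1.8th and 29.3rd percentile, 4 endothelial genes between the 8.2nd and 33.3rd, and 4 genes of basal epithelium between the 13.4th and 48.0th. Of 6 fibroblast genes, COL1A1 lay between the 49.0th and 61.1st, and COL1A2, COL3A1, DCN and PDGFRB between the 4.3rd and 39.3rd. LUM lay between the 4.7th and 13.6th in LNCaP. In VCaP it had log2 signals of 4.86 to 10.1 and fell by 3.87 with R1881 (adjusted p = 0.000111, limma). SFPQ, the target of siPSF, was at 9.61 and 9.70 with siPSF in VCaP, against 11.16 and 11.02 with siControl, and at 9.89 and 10.47 with siPSF in set 3, against 10.79 and 11.15 with siControl. CTBP1-AS was not analysed here. Values are log2 signals after RMA normalization. The set medians were 6.25 for VCaP and 6.7, 5.74 and 6.8 for LNCaP sets 1, 2 and 3, so differences were taken within a set, and levels of different sets are given as values only.

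In VCaP, R1881 raised most of the genes. Averaged over the 3 pairs, 23 of the 29 genes tested rose (limma with each pair as a block, adjusted p under 0.05 over 13812 genes), against 13.7% of all genes, and 1, PTGER4, fell, against 15.8%. The pairs differ in siRNA, come from 1 set and were counted as independent, which may make p too small. The median change of these 29 genes was 0.90 log2 units, and that of all genes was 0.00. The largest increases belonged to EAF2, a partner of transcription elongation factors, at 3.07 log2 units or 8.39-fold, and SLC45A3, a membrane transporter used as a marker of prostate cells, at 2.87 (7.29-fold). GNMT, LIFR and AGR2 followed at 2.15, 2.14 and 1.87. HPGD, PLPP1, ZBTB10, MED28 and TSC22D3 did not pass, and HPGD passed without the siControl pair (0.75, adjusted p = 0.0465) or the siCTBP1-AS pair (0.86, adjusted p = 0.0359). The filter on dim signals, which left out the 25% of genes with the lowest mean signal, removed MAK from this fit and kept the other 29. In all 3 VCaP pairs 27 of 30 genes stood above vehicle, against 29.8% of all genes.

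In LNCaP, R1881 raised nearly the whole group of genes. Averaged over the 6 pairs, 27 of 30 genes rose and 0 fell (limma with each pair as a block, adjusted p under 0.05 over 13812 genes), against 8.06% of all genes that rose and 7.46% that fell. These pairs mix siRNAs and doses, and pairs of a set were counted as independent, which may make p too small. The median change of the 30 genes was 1.61 log2 units, and the median of all genes tested was -0.01. The largest increases belonged to HPGD, which inactivates prostaglandins, at 3.52 log2 units or 11.5-fold. SLC45A3 followed at 2.81 (6.99-fold), and CENPN, a protein of the centromere, at 2.80 (6.96-fold). The genes that did not pass were AGR2, MED28 and TSC22D3. In every one of the 6 LNCaP pairs 27 genes stood above vehicle, against 10.4% of all genes. All 9 pairs of both lines had R1881 above vehicle for 25 genes, against 7.5%. All 30 genes passed the filter on dim signals in LNCaP.

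With siControl alone, 3 R1881 arrays were compared with 3 vehicle arrays. There 8 of 30 genes rose without a block for the set, against 0.224% of all genes, and the median change of the 30 genes was 1.81 log2 units. These were HPGD at 4.13, SLC45A3 at 3.04, CENPN at 2.98, SGK1 at 2.70, ELL2 at 2.64, MAK at 2.58, NDRG1 at 2.53 and HERC3 at 2.28, with adjusted p from 0.00384 to 0.0375 (limma). Same-numbered R1881 and vehicle arrays share a set, and with the replicate number as a block 25 of 30 rose, against 2.9% of all genes. AGR2, MED28, PTGER4, RAB27A and TSC22D3 did not pass in that fit. Leaving out replicate 1, 2 or 3 left 3, 0 and 0 calls without the block, beside 18, 2 and 0 of all 13812 genes higher. With the block it left 28, 20 and 25, beside 619, 150 and 228.

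**Figure D1:**
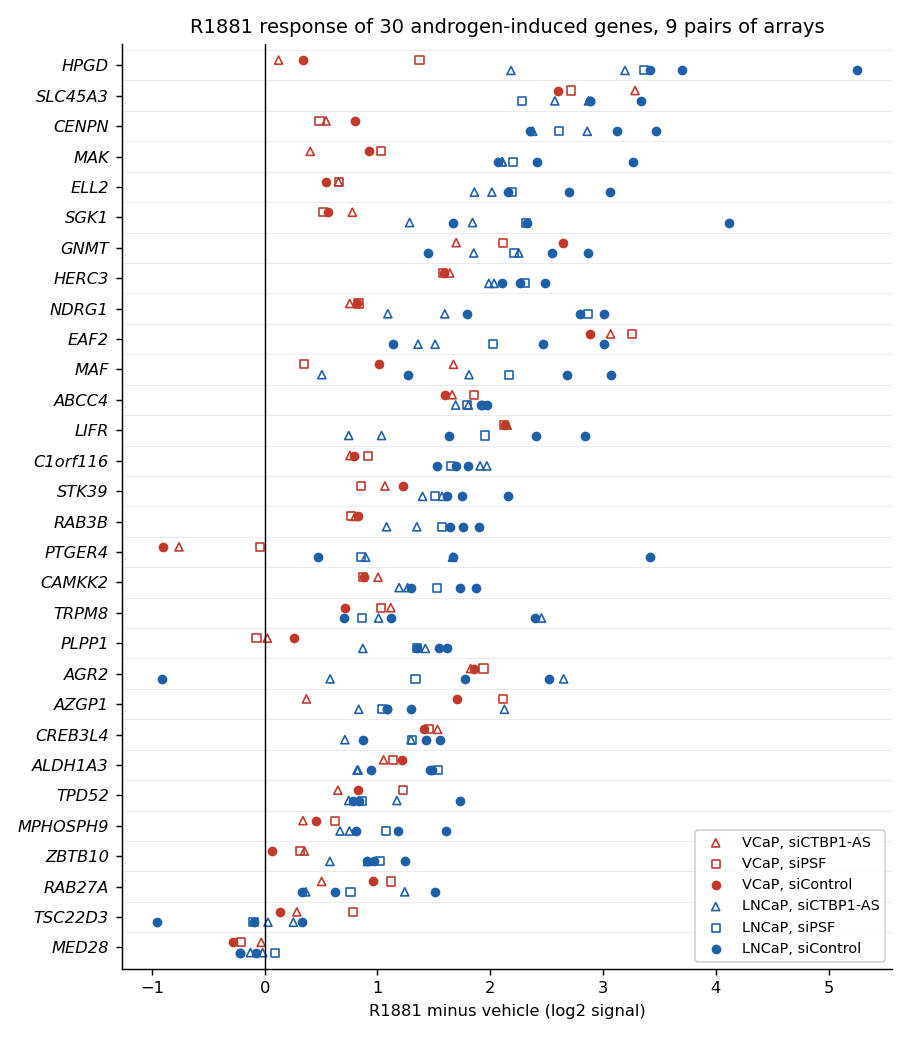
Difference between R1881 and vehicle (x axis, log2 signal) for each of the 30 genes (y axis, ordered by the mean over 6 LNCaP pairs) in the 9 pairs of arrays. Red marks VCaP and blue LNCaP, filled points siControl and open points the knockdowns. HPGD, CENPN, MAK, ELL2 and SGK1 lie far to the left in VCaP of their LNCaP points, EAF2 lies near 3 in VCaP, and MED28 and TSC22D3 lie on both sides of 0.

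The androgen response element is a palindrome of the arms AGAACA and TGTTCT with NNN, any bases, between them. These letters were looked for in the promoters from RefSeq (GRCh38.p14), windows that run from 250 bases before to 50 after the gene start. Promoters were listed for 25 of the 32 genes. The full palindrome was in 0 of them and in 0.00366% of 27305 promoters in all. A single arm, TGTTCT or AGAACA, was in 1 of 25 (4%), against 14.9% of all promoters. The TATA box letters TATAAA or TTTATA were in 3 of 25 (12%), against 12% of all promoters. The letters CCAAT or ATTGG were in 13 of 25 (52%), against 35.7%, and both strands were searched. Over 15842 protein-coding promoters the shares were 11.2% for the arm, 9.63% for TATA letters and 36.4% for CCAAT letters. The median GC content was 64.3%, against 58.3% over all promoters. A match describes letters in this window, not a site. The promoters that hold an arm or TATA letters are printed 5′ to 3′ on the strand of the gene, to show where these letters lie, and neither was more frequent here than over all promoters. STK39 was taken by the rule on single arms, and TRPM8, SGK1 and MAF were chosen after the motifs had been counted. Capitals mark the arm in STK39, whose first base is at position -112 from the gene start. In TRPM8 and MAF they mark TATA letters that begin at positions -27 and -30, and in SGK1 TATA letters on the other strand that begin at position -96.
STK39, chr2:168247546-168247845, minus strand: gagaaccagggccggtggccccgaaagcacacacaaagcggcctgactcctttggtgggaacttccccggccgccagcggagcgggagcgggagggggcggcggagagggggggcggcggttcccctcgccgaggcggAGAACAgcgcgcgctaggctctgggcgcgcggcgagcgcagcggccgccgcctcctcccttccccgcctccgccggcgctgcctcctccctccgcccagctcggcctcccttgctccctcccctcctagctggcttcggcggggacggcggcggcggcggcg
TRPM8, chr2:233917123-233917422, plus strand: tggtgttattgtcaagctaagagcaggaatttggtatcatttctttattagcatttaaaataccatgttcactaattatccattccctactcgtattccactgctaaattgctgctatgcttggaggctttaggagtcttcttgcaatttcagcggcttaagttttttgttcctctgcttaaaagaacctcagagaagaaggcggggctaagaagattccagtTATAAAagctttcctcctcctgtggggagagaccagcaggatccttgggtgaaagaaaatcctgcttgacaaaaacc
SGK1, chr6:134318063-134318362, minus strand: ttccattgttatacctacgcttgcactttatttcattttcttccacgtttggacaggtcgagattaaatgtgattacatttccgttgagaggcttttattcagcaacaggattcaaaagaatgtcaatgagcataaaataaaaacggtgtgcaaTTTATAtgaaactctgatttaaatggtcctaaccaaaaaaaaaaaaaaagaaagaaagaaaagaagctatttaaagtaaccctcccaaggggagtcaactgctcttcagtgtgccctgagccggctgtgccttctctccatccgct
MAF, chr16:79600688-79600987, minus strand: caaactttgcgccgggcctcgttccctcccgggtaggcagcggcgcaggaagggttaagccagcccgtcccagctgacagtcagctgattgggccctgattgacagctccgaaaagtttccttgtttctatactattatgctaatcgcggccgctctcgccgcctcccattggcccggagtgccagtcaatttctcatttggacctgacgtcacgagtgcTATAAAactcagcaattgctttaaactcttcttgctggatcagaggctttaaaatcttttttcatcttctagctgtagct
The STK39 window consists mostly of G and C, and those of TRPM8 and SGK1 are rich in A and T.

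The 5 genes of transport and vesicle traffic rose in both lines, against 13.7% of all genes in VCaP and 8.06% in LNCaP. SLC45A3 had log2 signals in VCaP, with siCTBP1-AS, siPSF and siControl in that order, of 12.03, 12.55 and 12.66 with R1881, against 8.74, 9.84 and 10.06 with vehicle. In LNCaP siControl sets 1, 2 and 3 it had 11.86, 11.996 and 12.38 with R1881, against 8.97, 8.66 and 9.49 with vehicle. The R1881 array was above its vehicle array in all 9 pairs, and the response was 2.87 ± 0.14 log2 units in VCaP (SE, adjusted p = 3.34e-05, limma) and 2.81 ± 0.12 in LNCaP over 6 pairs (adjusted p = 6.75e-06). ABCC4, an exporter of cyclic nucleotides and prostaglandins, had an even response, with pair differences of 1.6 to 1.86 in VCaP and 1.69 to 1.97 in LNCaP. RAB3B, a small GTPase of secretory vesicles, rose by 0.80 in VCaP and 1.55 in LNCaP. RAB27A, another GTPase of vesicle docking, rose by 0.86 in VCaP and 0.81 in LNCaP. Its LNCaP pairs were uneven, at 0.33 to 1.51, and its LNCaP call was lost without set 3 (0.86, adjusted p = 0.0805, limma). TPD52, a protein of membrane traffic, rose by 0.90 in VCaP and 1.02 in LNCaP on the cluster used. Its other cluster, annotated also to MRPS28, gave -0.49 in VCaP (adjusted p = 0.0122, limma) and 0.10 in LNCaP, so the direction of TPD52 in VCaP depends on the cluster.

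TRPM8, the ion channel opened by cold and menthol, rose in both lines. In VCaP its log2 signals, in the same order of siRNAs, were 10.29, 10.39 and 10.37 with R1881, against 9.17, 9.36 and 9.66 with vehicle. In LNCaP siControl sets 1, 2 and 3 they were 6.62, 7.39 and 6.31 with R1881, against 5.51, 5.00 and 5.61 with vehicle. R1881 was above vehicle in every pair of both lines. The response came to 0.95 ± 0.11 log2 units in VCaP (SE, adjusted p = 0.000729, limma) and 1.42 ± 0.25 in LNCaP (adjusted p = 0.00608). Both set 2 pairs, at 2.45 with siCTBP1-AS and 2.40 with siControl, were far above the other LNCaP pairs, which lay between 0.70 and 1.12.

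The 4 kinases rose in LNCaP, against 8.06% of all genes, and the 3 tested in VCaP rose there too, against 13.7%. SGK1, a kinase induced by serum and glucocorticoid that acts on ion transport, had VCaP signals of 6.60, 6.11 and 5.84 with R1881, against 5.82, 5.59 and 5.27 with vehicle. In LNCaP siControl it had 7.06, 8.14 and 7.79 with R1881, against 5.39, 4.03 and 5.46 with vehicle. The pair differences were 0.52 to 0.78 in VCaP and 1.28 to 4.12 in LNCaP. Its response was 0.62 ± 0.10 in VCaP (SE, adjusted p = 0.00301, limma) and 2.26 ± 0.31 in LNCaP (adjusted p = 0.00197), where the siControl pair of set 2 was the highest at 4.12. MAK, a kinase first found in male germ cells that acts in cilia, had VCaP signals of 4.60, 5.03 and 4.75 with R1881, against 4.20, 4.00 and 3.83 with vehicle and was left out of the VCaP fit as dim. The LNCaP siControl arrays had 7.92, 7.98 and 7.67 with R1881, against 5.51, 4.72 and 5.60 with vehicle. The pair differences were 0.4 to 1.03 in VCaP and 2.07 to 3.27 in LNCaP. CAMKK2, the calcium-dependent kinase that activates AMP-activated kinase, rose by 0.92 in VCaP and 1.48 in LNCaP. STK39, a kinase that regulates chloride cotransporters and whose promoter holds the arm printed above, rose by 1.05 in VCaP and 1.67 in LNCaP.

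Of the 4 enzymes, 2 rose in VCaP, against 13.7% of all genes, and all 4 in LNCaP, against 8.06%. HPGD had VCaP signals of 11.40, 12.39 and 11.78 with R1881, against 11.28, 11.02 and 11.45 with vehicle. With siControl in LNCaP it had 7.36, 9.84 and 8.42 with R1881, against 3.94, 4.58 and 4.71 with vehicle. The treatments overlapped in VCaP, whereas the LNCaP pair differences were 2.18 to 5.26. Its response was 0.61 ± 0.22 log2 units in VCaP (SE, adjusted p = 0.0711, limma) and 3.52 ± 0.31 in LNCaP (adjusted p = 0.000253). The VCaP pairs were at 0.12 with siCTBP1-AS, 1.37 with siPSF and 0.34 with siControl, so siPSF stood apart. PLPP1, a phosphatase of bioactive lipids, had VCaP signals of 11.38, 11.41 and 11.70 with R1881, against 11.36, 11.49 and 11.44 with vehicle. The siControl arrays of LNCaP had 12.76, 12.35 and 13.19 with R1881, against 11.22, 10.73 and 11.85 with vehicle. The pair differences were -0.07 to 0.26 in VCaP, on both sides of 0, and 0.87 to 1.62 in LNCaP. Its VCaP change was 0.07 with a 95% interval of -0.17 to 0.31, and it rose by 1.36 ± 0.09 in LNCaP (SE, adjusted p = 8.01e-05, limma). GNMT, which consumes S-adenosylmethionine to methylate glycine, rose by 2.15 in VCaP and 2.20 in LNCaP. ALDH1A3, which makes retinoic acid, rose by 1.14 in VCaP and 1.18 in LNCaP, and its other cluster did not pass in either line (0.23 in VCaP and 0.05 in LNCaP).

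Among 7 genes of transcription, 4 rose in VCaP, against 13.7% of all genes, and 5 in LNCaP, against 8.06%. ELL2, an elongation factor for RNA polymerase, had VCaP signals of 11.91, 11.70 and 11.54 with R1881, against 11.26, 11.04 and 10.99 with vehicle. In LNCaP siControl it had 11.12, 10.39 and 11.12 with R1881, against 8.42, 7.33 and 8.96 with vehicle. R1881 was above vehicle in every pair, by 0.55 to 0.66 in VCaP and 1.86 to 3.06 in LNCaP. ELL2 rose by 0.62 ± 0.09 in VCaP (SE, adjusted p = 0.00218, limma) and by 2.33 ± 0.15 in LNCaP (adjusted p = 5.96e-05). ELL2 has pseudogenes that its probes may also read. By its number the cluster used falls between those of RAB3B and SLC45A3, whose promoters are on chromosome 1. The other ELL2 cluster falls between those of LIFR on chromosome 5 and GNMT on chromosome 6. The clusters may therefore read different loci, and the cluster used may not read ELL2 itself, which was not checked. All ELL2 values given here are uncertain to that extent. The other ELL2 cluster gave 0.53 in VCaP and 2.03 in LNCaP.

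EAF2, a partner of the ELL proteins, had its higher value in VCaP. Its VCaP signals were 9.90, 10.52 and 9.91 with R1881, against 6.83, 7.26 and 7.03 with vehicle. In LNCaP siControl they were 9.40, 10.12 and 10.71 with R1881, against 8.26, 7.11 and 8.24 with vehicle. All 9 pairs had R1881 above vehicle. It rose by 3.07 ± 0.11 in VCaP (SE, adjusted p = 1.48e-05, limma), the highest value of the 29 genes tested there, and by 1.92 ± 0.23 in LNCaP (adjusted p = 0.00103). MAF, a leucine zipper factor, rose by 1.01 in VCaP and 1.92 in LNCaP with uneven pairs, at 0.35 to 1.67 in VCaP and 0.51 to 3.07 in LNCaP. CREB3L4, a factor anchored in the endoplasmic reticulum, rose by 1.47 in VCaP and 1.20 in LNCaP. ZBTB10, a zinc finger repressor, had a VCaP value of 0.24 that did not pass (adjusted p = 0.109, limma), and it rose by 0.94 in LNCaP.

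A pair of transcription genes did not pass in either line. MED28, a subunit of the Mediator complex, had VCaP signals of 9.34, 9.07 and 9.25 with R1881, against 9.37, 9.28 and 9.54 with vehicle, a change of -0.17 with a 95% interval of -0.40 to 0.05. The LNCaP siControl arrays had 9.47, 8.60 and 9.78 with R1881, against 9.55, 8.81 and 9.99 with vehicle, and its mean change over 6 pairs was -0.09 (-0.23 to 0.04). All 3 VCaP pairs and 5 of 6 LNCaP pairs were below 0, by small amounts. TSC22D3, a leucine zipper protein induced by glucocorticoid, had VCaP signals of 7.47, 6.95 and 7.16 with R1881, against 7.19, 6.16 and 7.02 with vehicle. With siControl in LNCaP it had 10.06, 7.87 and 10.22 with R1881, against 10.16, 8.83 and 9.89 with vehicle. Each VCaP pair was above 0, with a mean change of 0.40 (adjusted p = 0.0573, limma), while the LNCaP pairs lay on both sides, with a mean of -0.09 and a 95% interval of -0.43 to 0.25. The VCaP value passed without the siControl pair (0.54, adjusted p = 0.0221) and under 2 other scalings of the arrays (0.45 and 0.46, adjusted p = 0.0303 and 0.0356).

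The receptors went separate ways in VCaP. PTGER4, a receptor for prostaglandin E, had VCaP signals of 7.87, 7.35 and 7.03 with R1881, against 8.63, 7.39 and 7.93 with vehicle. The siControl arrays of LNCaP had 7.11, 8.75 and 8.78 with R1881, against 6.64, 5.33 and 7.11 with vehicle. The levels of the treatments overlapped in VCaP, yet every VCaP pair was below 0, from -0.90 to -0.05, and every LNCaP pair above 0, from 0.47 to 3.42. PTGER4 fell in VCaP, with a change of -0.57 ± 0.16 (SE, adjusted p = 0.0344, limma), and rose by 1.50 ± 0.33 in LNCaP (adjusted p = 0.0166). The VCaP call was lost without the siCTBP1-AS pair (-0.47, adjusted p = 0.143) or the siControl pair (-0.40, adjusted p = 0.111), and the LNCaP call without set 3 (1.61, adjusted p = 0.105). LIFR, the receptor for leukemia inhibitory factor, rose by 2.14 in VCaP and 1.77 in LNCaP. Its VCaP pairs were nearly identical at 2.12 to 2.15, and its LNCaP pairs spread over 0.74 to 2.84.

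The secretory genes AZGP1 and AGR2 both rose in VCaP, against 13.7% of all genes. AZGP1, a secreted glycoprotein of seminal plasma, rose by 1.40 in VCaP and 1.24 in LNCaP. In VCaP the siCTBP1-AS pair at 0.37 lay below the siPSF and siControl pairs at 2.12 and 1.70, and the call was lost without the siPSF pair (1.04, adjusted p = 0.0603, limma). AGR2, a disulfide isomerase of the endoplasmic reticulum, had VCaP signals of 11.46, 11.82 and 11.84 with R1881, against 9.63, 9.88 and 9.99 with vehicle. In LNCaP siControl it had 8.32, 7.80 and 8.42 with R1881, against 9.23, 6.03 and 5.90 with vehicle. The treatments were well apart in VCaP, and 5 of 6 LNCaP pairs were above 0. In LNCaP set 1 the siCTBP1-AS pair ran upward by 2.65 and the siControl pair gave -0.91. In VCaP AGR2 rose by 1.87 ± 0.09 (SE, adjusted p = 3.34e-05, limma). The LNCaP mean of 1.33 ± 0.41 did not pass (adjusted p = 0.0603) and did so without set 1 (1.55, adjusted p = 0.0151).

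The other 5 genes rose in both lines, against 13.7% of all genes in VCaP and 8.06% in LNCaP. CENPN had VCaP signals of 10.70, 10.81 and 10.70 with R1881, against 10.15, 10.33 and 9.90 with vehicle. The LNCaP siControl arrays had 11.96, 11.97 and 12.70 with R1881, against 8.84, 8.49 and 10.35 with vehicle. R1881 was above vehicle in every pair, by 0.49 to 0.8 in VCaP and 2.36 to 3.47 in LNCaP. CENPN rose by 0.61 ± 0.10 in VCaP (SE, adjusted p = 0.00384, limma) and 2.80 ± 0.14 in LNCaP (adjusted p = 2.25e-05). NDRG1, a protein induced by stress and differentiation, had VCaP signals of 13.11, 13.02 and 13.19 with R1881, against 12.35, 12.19 and 12.38 with vehicle. With siControl in LNCaP it had 12.88, 12.41 and 12.97 with R1881, against 11.09, 9.40 and 10.18 with vehicle. All 9 pairs had NDRG1 higher with R1881, and it rose by 0.80 in VCaP and 2.19 in LNCaP. HERC3, a ubiquitin ligase, had an even response, at 1.58 to 1.64 over the VCaP pairs and 1.99 to 2.49 over the LNCaP pairs. C1orf116, also called SARG for specifically androgen-regulated gene, rose by 0.82 in VCaP and 1.76 in LNCaP. MPHOSPH9, a phosphoprotein of mitosis and the centriole, rose by 0.47 in VCaP and 1.02 in LNCaP, and its VCaP call was lost without the siPSF pair (0.40, adjusted p = 0.0726, limma).

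The difference between the lines was tested directly in 1 fit of all 18 arrays. VCaP is represented by 1 array set, so the line cannot be told apart from that set or from its serum content, and pairs of 1 set are counted as independent, which may make p too small. The response was smaller in VCaP than in LNCaP for 14 of 30 genes, against 6.33% of all genes, and larger for 0, against 5.25%. The median difference, VCaP minus LNCaP, was -0.55 log2 units, and 0.01 over all genes. HPGD differed by -2.91 ± 0.51 (SE, adjusted p = 0.0047, limma), CENPN by -2.19 ± 0.23 (adjusted p = 0.000187) and PTGER4 by -2.06 ± 0.52 (adjusted p = 0.0265). ELL2 differed by -1.71 ± 0.23 (adjusted p = 0.000994), SGK1 by -1.64 ± 0.47 (adjusted p = 0.0455) and MAK by -1.57 ± 0.25 (adjusted p = 0.00276). The ELL2 value carries the uncertainty of its cluster given above. MAK was left out of the VCaP fit as dim, with VCaP signals of 3.83 to 5.03. It passed the filter here only through its higher LNCaP signals, and the part of dim signal in its difference was not tested. NDRG1 and PLPP1 differed by -1.39 and -1.29, and C1orf116, RAB3B, ZBTB10, STK39, HERC3 and CAMKK2 by -0.94 to -0.56. By role these 14 were 4 of 4 kinases, 4 of 5 genes of mixed function, 2 of 4 enzymes, 2 of 7 genes of transcription, 1 of 2 receptors and 1 of 5 genes of transport and vesicle traffic, and differences between roles were not tested. All 3 VCaP pairs lay below all 6 LNCaP pairs for 15 of 30 genes, against 8.12% of all genes.

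Other genes did not pass this test, and the width of their intervals differs. SLC45A3 had a difference of 0.06 with a 95% interval of -0.41 to 0.53, ABCC4 -0.14 with -0.37 to 0.08, and ALDH1A3 -0.04 with -0.45 to 0.36. EAF2 had the highest difference, 1.15 ± 0.35 (SE, adjusted p = 0.0548, limma), and passed without set 2 (1.32, adjusted p = 0.0213). AGR2 had a wide interval of -0.83 to 1.92 around 0.55. VCaP received 1 nM R1881 while LNCaP received 10 or 1 nM. Against the LNCaP set at 1 nM only, 11 genes had the smaller VCaP response, against 3.59% of all genes, with TRPM8 added (-1.47, adjusted p = 0.00398) and CAMKK2, HERC3, RAB3B and STK39 not passing. Without set 1, 2 or 3 the test called 12, 14 and 10 genes lower, beside 535, 695 and 893 of all 13812 genes, and the calls lost in at least 1 of these were CAMKK2, NDRG1, SGK1 and STK39, with adjusted p up to 0.0985.

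**Figure D2:**
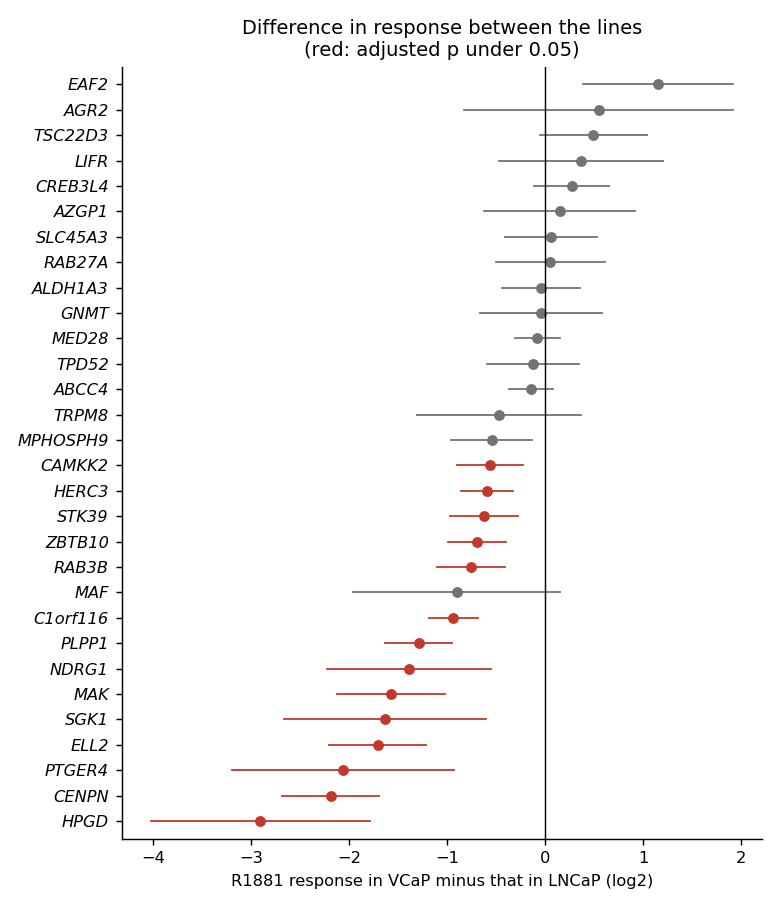
Response to R1881 in VCaP minus that in LNCaP (x axis, log2 units) for each of the 30 genes (y axis), with 95% intervals from the fit of all 18 arrays. Red marks the 14 genes with an adjusted p under 0.05, which all lie to the left of 0, from CAMKK2 at -0.56 to HPGD at -2.91.

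**Figure D3:**
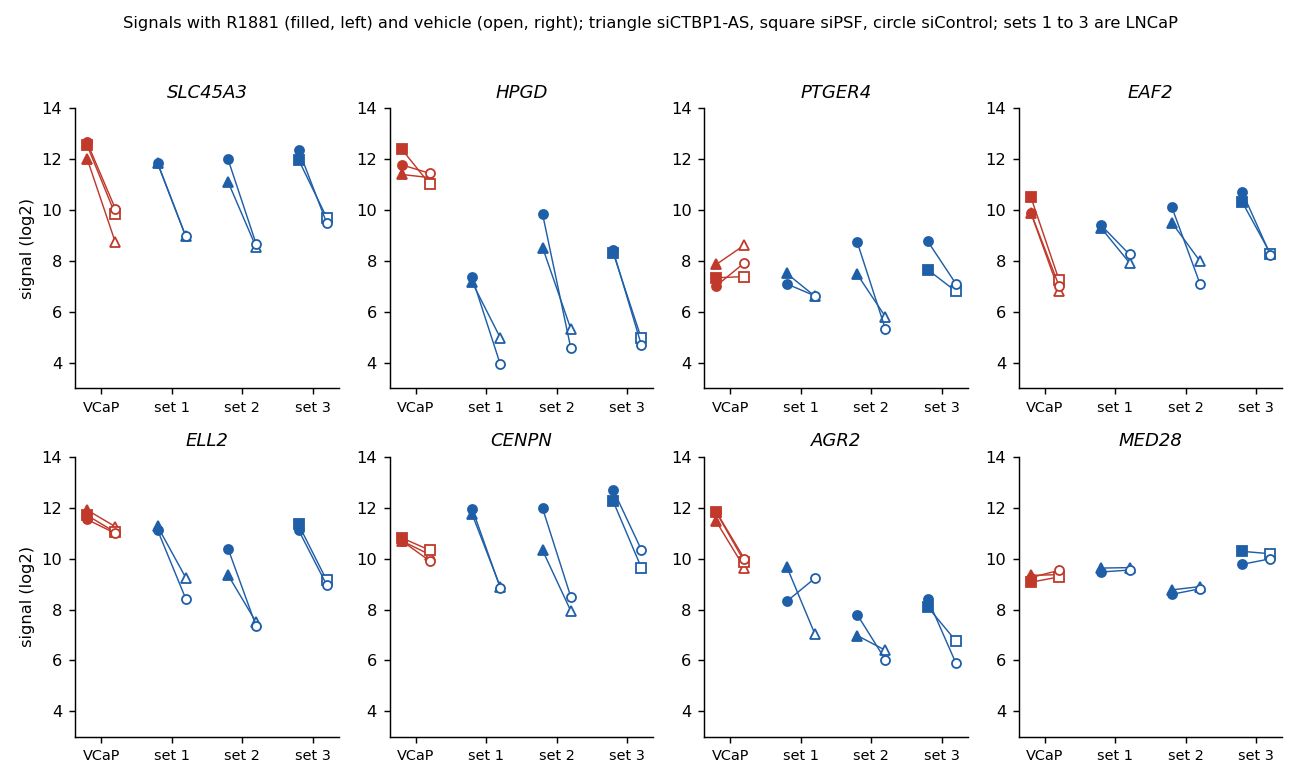
Log2 signal (y axis) of 8 genes in every array, by set (x axis), with R1881 filled and to the left of vehicle, which is open. Lines join the arrays of a pair. HPGD and ELL2 have flatter lines in VCaP than in LNCaP, PTGER4 slopes in opposite directions in the lines except for a nearly flat siPSF pair in VCaP, and MED28 is flat.

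The LNCaP siControl pairs of the 3 sets are set side by side here, since dose and set cannot be told apart. The difference in set 2, at 1 nM, was above those of sets 1 and 3, at 10 nM, for 21 of 30 genes, against 37.1% of all genes. HPGD had 5.26 in set 2, 3.42 in set 1 and 3.70 in set 3, and SGK1 had 4.12 in set 2, 1.67 in set 1 and 2.33 in set 3. PTGER4 had 3.42 in set 2, 0.47 in set 1 and 1.67 in set 3. MAF went the other way, with 1.27 in set 2, 2.68 in set 1 and 3.07 in set 3. An increase of at least 1 log2 unit was seen in VCaP for 13 of 30 genes with siCTBP1-AS (1.93% of all genes), 15 with siPSF (1.88%) and 12 with siControl (2.13%). In set 1 of LNCaP it was seen for 21 genes with siCTBP1-AS (0.999%) and 21 with siControl (1.16%), and in set 2 for 20 with siCTBP1-AS (0.753%) and 28 with siControl (2.19%). In set 3 it was seen for 24 genes with siPSF (1.51%) and 23 with siControl (1.94%).

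Knockdown of CTBP1-AS or PSF was compared with siControl over all 18 arrays. For siCTBP1-AS, averaged over treatments, 0 of 30 genes passed in limma, against 0.565% of all genes, and 10 had an unadjusted p under 0.05, against 18.6% of all genes. The lowest values were ABCC4 at -0.95 ± 0.20 (SE, adjusted p = 0.0566), GNMT at -0.70 ± 0.21 (adjusted p = 0.109) and SLC45A3 at -0.51 ± 0.15 (adjusted p = 0.108). The median over the 30 genes was -0.16 log2 units, beside -0.02 over all genes. ABCC4 had signals with R1881 of 11.37 with siCTBP1-AS against 11.99 with siControl in set 1, 9.88 against 11.84 in set 2 and 10.40 against 11.08 in VCaP. With vehicle it had 9.57 with siCTBP1-AS against 10.07 with siControl, 8.19 against 9.87 and 8.73 against 9.48. It was lower with siCTBP1-AS in all 6 comparisons, and it passed when 50% of genes were left out as dim (adjusted p = 0.0432, limma).

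For siPSF, 0 of 30 genes passed in limma, against 1.45% of all genes, and 2 had an unadjusted p under 0.05, against 13.4%. These were ABCC4, at -0.72 ± 0.24 (SE, adjusted p = 0.19), and MAK, at 0.49 ± 0.19 (adjusted p = 0.282). ABCC4 had signals with R1881 of 12.35 with siPSF against 12.64 with siControl in set 3 and 10.23 against 11.08 in VCaP. The VCaP siControl arrays serve both knockdowns, so the ABCC4 values of siCTBP1-AS and siPSF share them.

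The largest shift with a knockdown was in the R1881 arrays of LNCaP set 2. There siCTBP1-AS #2 lay below siControl for 26 of 30 genes, against 50.7% of all genes, with a median of -0.82 log2 units and 8 genes lower by at least 1 unit, against 2.43%. SGK1 was lowest, at 5.63 with siCTBP1-AS against 8.14 with siControl, and LIFR had 9.36 against 11.31. In the vehicle arrays of the same set the median was 0.01. In set 1 with R1881 the count was 19 of 30, against 53.1% of all genes (median -0.11), and in VCaP it was 23 of 30, against 51.3% (median -0.14). The R1881 response was smaller with siCTBP1-AS than with siControl for 26 of 30 genes in set 2, against 48.4% of all genes, 20 in set 1, against 45%, and 15 in VCaP, against 41.1%. With siPSF it was smaller for 17 genes in set 3, against 46.5%, and for 11 in VCaP, against 43%. Set 2 with R1881 is 1 array on each side, with no replicate. Its siControl array enters the lower levels, the smaller responses and the high siControl responses of set 2 given above. They are therefore not separate observations.

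As a test over sets, the change of the R1881 response with siCTBP1-AS passed for 0 of 30 genes in limma, against 0% of all genes. At an unadjusted p under 0.05 there were 4 of 30, against 3.49%. These were HPGD at -1.10 ± 0.46, LIFR at -0.98 ± 0.38, NDRG1 at -0.84 ± 0.36 and RAB3B at -0.40 ± 0.15 (SE, adjusted p = 0.996 for each). With siPSF 0 genes passed, against 0% of all genes, and 0 of 30 had an unadjusted p under 0.05, against 1.94%. Of 18 interferon-stimulated genes tested, 5 rose with siCTBP1-AS and 1 with siPSF, averaged over treatments (limma, adjusted p under 0.05), against 0.565% and 1.45% of all genes in either direction. Set by set, of 19 such genes, 19 were above siControl with siCTBP1-AS in set 1 with R1881 (median 4.57 log2 units), 18 in set 2 (2.70) and 19 in VCaP (1.39). With siPSF 19 were above siControl in VCaP with R1881 (2.75) and 11 in set 3 (0.21). In these comparisons 49.2% to 53.1% of all genes lay below siControl, so the count in set 3 was near the share of all genes. The part of the interferon-stimulated genes in the values of the androgen-induced genes was not tested.

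**Figure D4:**
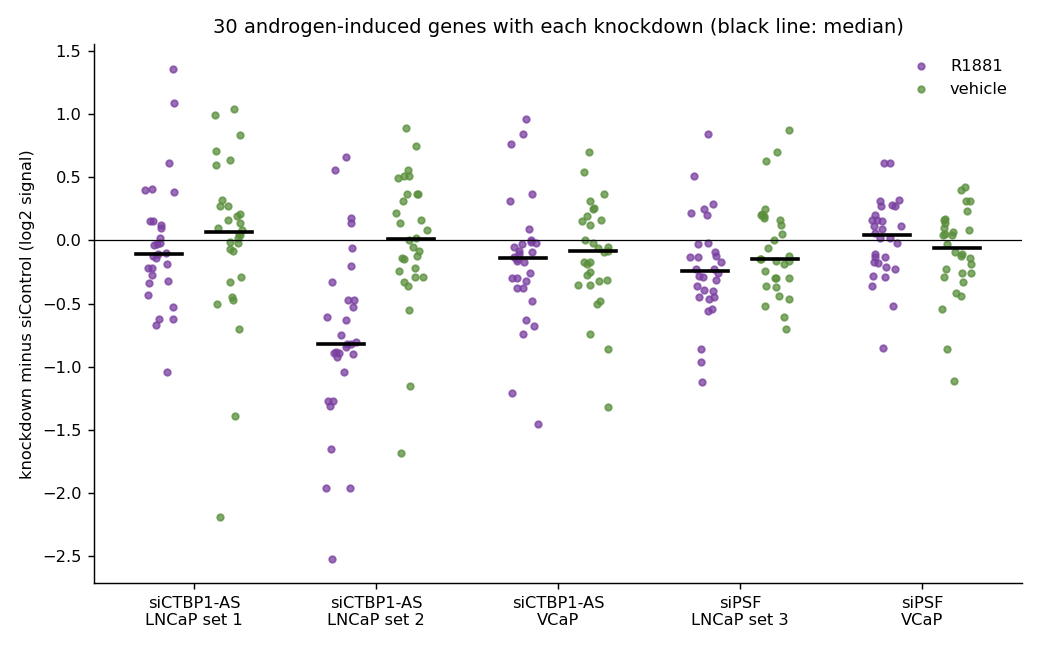
Knockdown minus siControl (y axis, log2 signal) of the 30 genes in each set, with R1881 in purple to the left of vehicle in green, and the median as a black line. Medians lie between -0.24 and 0.06 except for siCTBP1-AS in LNCaP set 2 with R1881, at -0.82.

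Other androgen-responsive genes from the wider list mostly moved in the same directions. Of 30 further androgen-induced genes tested, 26 rose in VCaP (median 1.07 log2 units, adjusted p under 0.05 in limma), against 13.7% of all genes, and 1, ATAD2, fell (-0.45, adjusted p = 0.00893), against 15.8%. In LNCaP over 6 pairs 29 of 30 rose (median 1.53), against 8.06% of all genes. Values ran from STEAP2 at 0.11, which did not pass, to STEAP4 at 5.93. STEAP4 and STEAP2 encode metalloreductases. VCaP had a smaller response for 10 of these 30 genes, against 6.33% of all genes, and a larger one for 2, against 5.25%. Of 12 androgen-repressed genes on the array, the filter on dim signals kept 6 in VCaP and 8 in LNCaP. Of those tested, 6 of 6 fell in VCaP (median -1.31), against 15.8% of all genes, and 8 of 8 in LNCaP (median -2.06), against 7.46%.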

How the data were processed

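Per the submitters' processing notes, the authors used Expression Console 1.1.1 (Affymetrix) with RMA, and they deposited log2 signals for each transcript cluster. Which arrays were normalized together is not given in the sources. Sets follow the array names in the labels, and arrays of a set correlated at 0.98 to 0.9924 across clusters. Of 33297 clusters, 19460 had 1 symbol in the platform annotation, 1754 several and 12083 none. A gene was represented by its brightest cluster. Listed genes could also use a cluster annotated to several symbols. The dimmest 25% of genes were left out, which left 13812 per fit.

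Tests used limma 3.58.1 in R 4.3.3 (lmFit and eBayes, two-sided), with Benjamini-Hochberg adjustment over all genes and a threshold of 0.05. The LNCaP siControl fit had no block. The fits over 6 and 3 pairs and between lines had each pair as a block, and the knockdown fits had the set as a block with terms for R1881 per line, each siRNA and their products. The replicate numbers pair the LNCaP siControl arrays by set: deviations from the group mean correlated at 0.7853, 0.843 and 0.699 within a number and at -0.6379 to -0.0927 across numbers. The number of arrays limits the precision. Every listed gene is named, and values in each array are given for genes a result turns on. The genes, lists and tests were chosen with earlier results of these data known.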

Additional observations from a re-analysis of the deposited data

Results flagged for a closer look

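For 14 genes the response to R1881 differed between the lines by a test of the difference itself (limma over 18 arrays, adjusted p under 0.05), each smaller in VCaP than in LNCaP. The VCaP minus LNCaP values in log2 units were -2.91 for HPGD, -2.19 for CENPN, -2.06 for PTGER4, -1.71 for ELL2, -1.64 for SGK1, -1.57 for MAK, -1.39 for NDRG1 and -1.29 for PLPP1. They were -0.94 for C1orf116, -0.76 for RAB3B, -0.69 for ZBTB10, -0.62 for STK39, -0.59 for HERC3 and -0.56 for CAMKK2. MAK was dim in VCaP, and the ELL2 value carries the uncertainty of its cluster, as given above. Most groups had 1 array and the largest had 3, too few for a check of single arrays that stand apart.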

How the results depend on the processing

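Of 100 counts of genes under an alternative, 87 stayed within 1.5 times the value in the report. These include the knockdown fits, whose count of 0 mostly stayed 0. Over the LNCaP pairs, leaving out set 2 and using only 10 nM R1881 kept the same arrays, and both are counted. In the LNCaP siControl fit the count of 8 became 13 with quantile normalization over the 18 arrays, beside 66 of all 13812 genes higher. With the replicate block it became 25, beside 401. Leaving out 1 replicate gave 0 to 3 without the block and, as an alternative chosen after seeing the data, 20 to 28 with it. The cause was not tested. Over 6 LNCaP pairs the count of 27 became 17 with no replicate block, beside 69 of all 13812 genes higher. For siCTBP1-AS the count of 0 became 1 (ABCC4, lower) when 50% of genes were left out as dim, beside 120 of 9208 genes lower. With a fold of 0.5 log2 units the VCaP pairs gave 21 genes with siCTBP1-AS, 24 with siPSF and 23 with siControl. The share of all genes past that fold was not computed. The other cluster of TPD52, an alternative chosen after seeing the data, reversed its VCaP value to -0.493, and the cause was not tested. Of 2030 single-gene values outside the LNCaP siControl fit, 1894 kept both their direction and their side of the threshold. A further 33 no longer passed and 14 newly passed. The direction changed for 88 that passed under neither setting and for 1 that passed under at least 1 setting. The precision is limited by the single array for each siRNA and treatment in a set.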
